A study of Mus musculus with 16 samples.

Results

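Transient antigen was compared with no antigen in CD4+ T cells of mice that received PBS in place of an antibody that activates dendritic cells. The 3 arrays titled short dox, PBS were set against the 3 titled no dox, PBS, which are 6 of the 16 arrays of the series, and all 6 were used. The donor cells were lymph node cells of AND mice, in which a transgene fixes the T cell receptor to one for a moth cytochrome c peptide, and they carried CD90.1 as a marker. Both kinds of recipient were of B10.BR background, carried the TIM transgene, which encodes the peptide under doxycycline control, and were labelled 6 to 8 weeks old. The cells were sorted as CD4+CD90.1+ at 60 h from subcutaneous lymph nodes, a site that 1 of the no-antigen arrays does not state. Recipients with transient antigen were Ii-rTA+, so that the doxycycline-responsive activator was present, and received doxycycline for a short time. Recipients without antigen were Ii-rTA- and received none. Antigen, recipient genotype and doxycycline exposure therefore cannot be told apart in this comparison. The name Ii-rTA refers to the invariant chain, whose gene is active in cells that present peptides on MHC class II. The other arrays used below were 3 under persistent antigen with PBS, and 2 without and 2 with transient antigen in mice given FGK45.5, a stimulatory antibody against CD40.

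A CD4+ T cell that recognises its peptide first switches on genes of receptor signalling, such as those of the Nr4a and Egr families, and may then divide. Cells that have divided are known to keep surface proteins of antigen experience, among them CD44, CXCR3 and the integrin beta 1 chain, and to carry less of the naive cell's IL-7 receptor. Presentation by dendritic cells that were not activated is known to give T cell responses that do not last. The question here is what a passing exposure of this kind left in the T cells.

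Values below are log2(intensity + 1) of the deposited intensities, with 1 probe set for each of 18193 genes. Differences are transient minus no antigen with the standard error of limma, and p-values were adjusted over all 18193 genes by the method of Benjamini and Hochberg. This scale understates the change of dim genes, and below 4.37, the median probe set, signal was not set apart from background. The median intensity of the 6 arrays lay between 18.8 and 21.2. Both replicate 2 arrays had lower mean intensities (95.6 and 98.2) than the other 4 (106 to 114), and they came from runs of array numbers that differed from each other. Arrays with the same replicate number deviated together. The Y-linked gene Eif2s3y was at 9.93 and 9.84 in both replicate 1 arrays and between 2.61 and 2.75 in the other 4, and the X-linked RNA Xist, made in female cells, was low where Eif2s3y was high. Sex therefore went with the replicate number and not with antigen, and each result is given without and with the replicate number as a block. "Rose" and "fell" are used for genes past an adjusted p of 0.05 in the fit named. No label says whether the replicates were different animals. Their Y-linked signal sets replicate 1 apart from replicates 2 and 3 by donor sex, and how far the remaining spread behind each p-value is technical is not known.

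Without the block 23 genes passed, 17 higher and 6 lower, or 0.126% of the genes tested (0.0934% higher and 0.033% lower). With the block 525 passed, 367 higher and 158 lower, or 2.89% (2.02% higher and 0.868% lower), and they included all 23. The median difference over all genes was 0.03. Of the 525, 130 rose and 62 fell by at least 1 on the log2 scale. In 523 the direction was the same within each of the 3 replicate numbers. In 321 the arrays of the groups did not overlap, beside 10.1% of all genes. The blocked fit favours genes that differ alike within each number. Both counts therefore follow in part from how the 525 were chosen and are no separate support. After cyclic loess scaling the blocked split was 314 higher and 260 lower, and the unblocked split 27 higher and 17 lower. The counts depended on single arrays. With the block 312 genes passed without the transient PBS replicate 1 array and 211 without the transient PBS replicate 2 array. Without the block 7 passed without no-antigen PBS replicate 1, 8 without transient PBS replicate 2, 9 without transient PBS replicate 1, and 10 each without no-antigen PBS replicates 2 and 3. With the block all 23 remained past the threshold in each of 6 fits that left out 1 of the 6 arrays, as did 168 of the 525. Without the block, the fit that named the 23, only 6 of them remained in all 6 such fits.

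Genes of antigen experience were among the largest increases. Cxcr3, a chemokine receptor of Th1 and memory cells, was at 5.76, 5.28 and 7.09 in the no-antigen arrays and at 10.52, 9.98 and 10.77 after transient antigen. No array of one group reached the other, and the lowest transient array stood far above the highest no-antigen array. The difference of 4.38 ± 0.47 is a 20.8-fold higher level (adjusted p = 0.0021, and 3.4e-07 with the block). Itgb1, which encodes the integrin beta 1 chain, was at 6.33, 5.29 and 5.80 against 9.51, 9.17 and 8.87. Its groups were also far apart (3.37 ± 0.49, 10.4-fold, adjusted p = 0.015, and 1.7e-06 with the block). Anxa2, a membrane-binding annexin gene, was at 5.11, 5.07 and 5.91 against 8.46, 7.84 and 7.57, and its groups did not overlap (2.59 ± 0.39, adjusted p = 0.019, and 1.8e-05 with the block). Ahnak, which encodes a large scaffold protein, was at 8.04, 6.32 and 8.60 against 10.38, 9.20 and 10.65. It shows what the block does: within each number it rose by a similar amount, while the numbers themselves differed (2.42 ± 0.70, adjusted p = 0.43, and ± 0.21, adjusted p = 1.7e-06 with the block). Cd44, the hyaluronan receptor gene used to mark antigen-experienced T cells, was at 9.66, 8.34 and 9.47 against 10.47, 10.57 and 10.73. The transient arrays were all higher, and the no-antigen arrays were already well above background (1.43 ± 0.44, adjusted p = 0.51, and 0.0012 with the block).

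The gene lists here and below were written with earlier results of these data known. Shares of members that passed therefore describe the lists and are no support on their own. A single call in a short list is not read as a result about that list. The list of memory and antigen-experience markers holds 28 measured genes. With the block 16 rose (57.1%, beside 2.02% of all genes) and 0 fell, and without it 3 rose and 0 fell. The median difference was 0.92, and 0.60, 1.43 and 0.68 within replicates 1 to 3. Beside the 5 genes above they were Lgals1, which encodes galectin-1, S100a6 and S100a10 of the S100 calcium-binding proteins, the annexin gene Anxa6, the intermediate filament gene Vim, Crip1, Plac8, the IL-2 receptor beta chain gene Il2rb, and Cd48, Slamf6 and Tnfrsf13b. Lgals1 was at 6.42, 5.70 and 7.30 against 8.46, 9.13 and 8.57 (2.25 ± 0.34 with the block, adjusted p = 0.00073). S100a6 differed by 2.49 ± 0.55 in mean but was uneven: it went from 3.80 to 7.10 and from 3.73 to 8.17 in replicates 1 and 2, and from 6.10 to 5.82 in replicate 3. Its call (adjusted p = 0.015 with the block) was lost without no-antigen PBS replicate 1 (0.079) or 2 (0.091), or transient PBS replicate 1 (0.094) or 2 (0.15). Without no-antigen PBS replicate 2 or transient PBS replicate 2, 12 of the 16 calls remained.

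**Figure D1:**
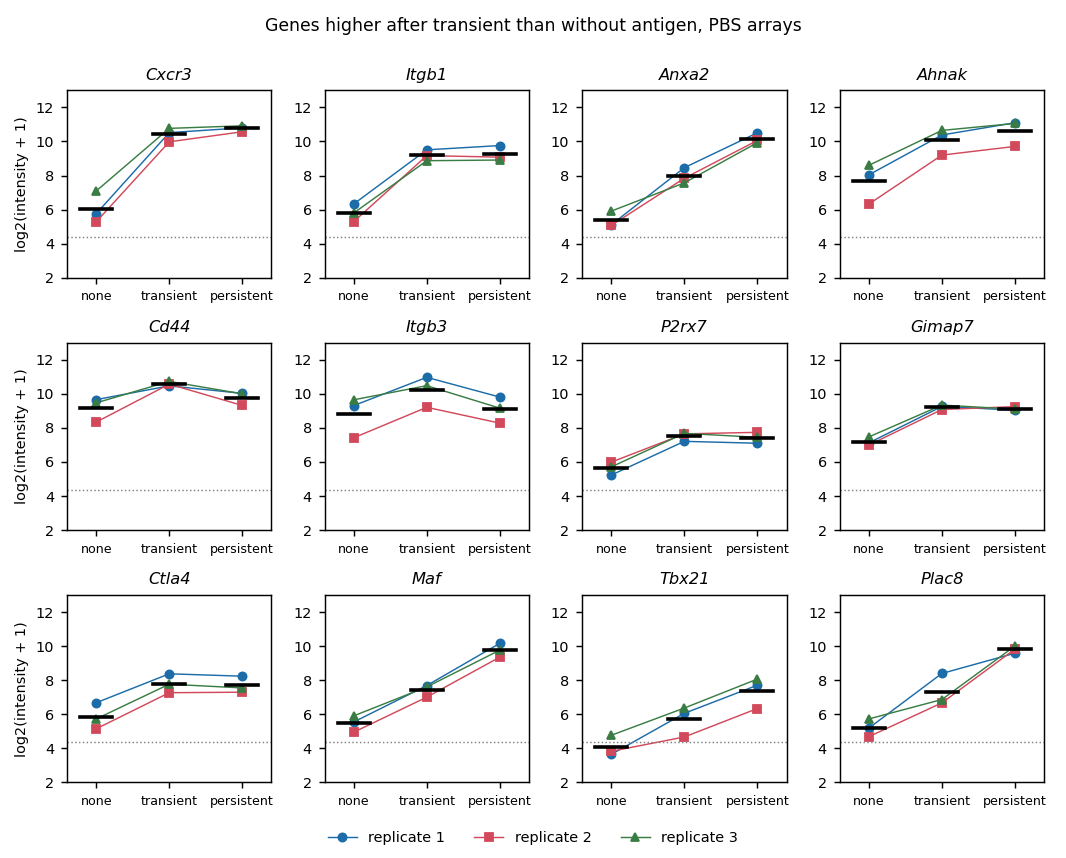
Log2(intensity + 1) of 12 genes that rose with the replicate block, in the PBS arrays without antigen, after transient antigen and under persistent antigen. Points are arrays, colours and lines join arrays with the same replicate number, black bars are group means of 3 arrays, and the dotted line is the median probe set (4.37). Cxcr3, Itgb1 and Gimap7 after transient antigen lay near their persistent arrays, Anxa2, Maf and Plac8 lay between, and Cd44 and Itgb3 were highest after transient antigen.

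The other genes that rose in both fits had varied roles. Cpm, which encodes the membrane peptidase carboxypeptidase M, was at 3.98, 4.25 and 4.60 against 6.97, 6.52 and 7.13, near background in all 3 no-antigen arrays (2.60 ± 0.24, adjusted p = 7e-04). P2rx7, the receptor gene for extracellular ATP, was at 5.23, 5.99 and 5.71 against 7.21, 7.65 and 7.68 without overlap (1.87 ± 0.27, adjusted p = 0.015). Gimap7, a GTPase gene of lymphocytes, was at 7.12, 6.99 and 7.47 against 9.26, 9.08 and 9.34, with little spread in either group (2.04 ± 0.25, adjusted p = 0.0032). The mitochondrial co-chaperone gene Dnajc15 (2.28 ± 0.26) and the ataxin gene Atxn1 (2.10 ± 0.25) rose by similar amounts. Epsti1, a gene that interferons induce, rose by 2.02 ± 0.33 (adjusted p = 0.032). Ctla2a and Ctla2b, which encode inhibitors of cysteine proteases, rose by 1.96 ± 0.35 and 1.67 ± 0.27, and the serpin gene Serpinb6b by 1.46 ± 0.26. The remaining increases were those of Evi2a (1.36 ± 0.22), the prefoldin gene Pfdn1 (1.28 ± 0.22), Rgs1 (1.27 ± 0.22), which limits signals of chemokine receptors, Armc3 (1.06 ± 0.18) and the epoxide hydrolase gene Ephx4 (0.74 ± 0.12). Ctla2b lay below the median probe set in all no-antigen arrays and Ephx4 in all 6 arrays, so their sizes are not exact, and Ctla2a and Ctla2b are close copies whose probes may share signal.

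Receptor and regulator genes that passed only with the block included Ctla4, which encodes an inhibitory receptor that takes ligands from antigen-presenting cells. Ctla4 was at 6.68, 5.15 and 5.73 against 8.38, 7.27 and 7.77, without overlap (1.95 ± 0.21, adjusted p = 2.1e-05, and 0.4 without the block). It was the 1 member of 14 measured inhibitory receptors that rose (7.14%, beside 2.02% of all genes), and 0 fell. Pdcd1, the gene of PD-1, was at 6.13, 6.25 and 6.14 against 5.47, 5.71 and 6.05 (−0.43 ± 0.17 with the block, adjusted p = 0.23). The neuropilin gene Nrp1, a co-receptor for semaphorins, was at 6.57, 5.27 and 7.18 against 8.84, 8.11 and 8.74 (2.22 ± 0.31, adjusted p = 0.00033, and 0.18 without the block). Of 15 regulatory T cell genes 5 rose and 2 fell with the block (33.3% and 13.3%, beside 2.02% higher and 0.868% lower of all genes, median −0.03). Those that rose were Ctla4, Nrp1, Ebi3, Capg and Izumo1r, and those that fell were Ikzf2 and Gpr83, while Foxp3, which defines that lineage, had means below the median probe set in both groups and did not pass. Without transient PBS replicate 2, 3 of these 7 calls remained, and 4 did without no-antigen PBS replicate 1.

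Adhesion genes rose in part. Of 25 integrins and adhesion genes 6 rose and 0 fell with the block (24.0%, beside 2.02% higher of all genes, median 0.00), and without it only Itgb1 passed. Itgb3, the integrin beta 3 chain gene, was at 9.31, 7.42 and 9.65 against 10.97, 9.21 and 10.48. The groups overlapped, and within each number the transient array was higher, least so in replicate 3 (1.43 ± 0.21 with the block, adjusted p = 0.00061, and 1 without it). Alcam, which encodes a ligand of CD6, rose by 1.82 ± 0.26 with the block (adjusted p = 0.00044), and the others were Cd44, Cd48 and the selectin ligand gene Selplg. Without no-antigen PBS replicate 2, 4 of the 6 remained. Among 27 chemokine receptors and G-protein regulators 3 rose with the block, Cxcr3, Rgs1 and the sphingosine phosphate receptor gene S1pr4, and 0 fell (11.1%, beside 2.02% higher of all genes, median 0.01). Of 18 genes of IL-2 and the receptors that share its common chain, Il2 and Il2rb rose and Il7r fell with the block (11.1% and 5.56%, beside 2.02% higher and 0.868% lower of all genes). Il2ra, the high-affinity receptor chain of recently stimulated cells, was at 4.91, 5.30 and 5.01 against 4.82, 4.95 and 4.81 (−0.21 ± 0.16 with the block, adjusted p = 0.6).

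Several genes that receptor signals switch on fell, so that they were lower after transient than without antigen. Nr4a3, an orphan nuclear receptor gene of this class, was at 10.11, 9.69 and 9.58 without antigen and at 7.29, 7.75 and 8.37 after it. All transient arrays were lower, and the no-antigen arrays were among the brighter signals of the array (−1.99 ± 0.28 with the block, adjusted p = 0.00035, and 0.16 without it). Tnfrsf9, which encodes the costimulatory receptor 4-1BB, was at 8.02, 7.65 and 7.99 against 6.23, 6.50 and 6.11, and it was the 1 member of the list that fell in both fits (−1.61 ± 0.23, adjusted p = 0.015). Nr4a1 was at 8.79, 7.95 and 8.90 against 6.98, 7.73 and 7.32 (−1.20 ± 0.23 with the block, adjusted p = 0.0048, and 0.052 without transient PBS replicate 1). The list of early receptor-signal genes holds 25 measured members. Its median difference was −0.49, and −0.37, −0.22 and −0.26 within replicates 1 to 3. Its median level was 7.44, 6.73 and 7.71 against 6.77, 7.17 and 6.56, so that it was higher after antigen in replicate 2. With the block 5 members fell (20%, beside 0.868% of all genes) and 2 rose. Those that fell were Nr4a3, Tnfrsf9, Nr4a1, the zinc finger gene Egr3 and Cd69, and those that rose were Il2 and Irf4. Without no-antigen PBS replicate 2, 3 of these 7 remained, and 4 did without any one of the 3 transient arrays. Egr1 (12.02, 11.20 and 11.92 against 11.12, 10.85 and 11.66) and Egr2 (9.39, 8.67 and 9.45 against 8.27, 8.68 and 9.03) did not pass (adjusted p = 0.12 and 0.24 with the block). Fos, an immediate early gene that cell handling also induces, was at 9.45, 10.15 and 8.74 against 7.07, 7.45 and 7.76. Its groups did not overlap (−2.02 ± 0.39 with the block, adjusted p = 0.005, and 0.053 without transient PBS replicate 1). It was the 1 of 22 immediate early and stress genes that passed (4.55%, beside 0.868% lower of all genes), with a list median of −0.12. The part of sample handling in these decreases was not tested.

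Some naive cell genes fell, and the median of the list was near 0 in the group means and below 0 within each number. It was −0.24, −0.07 and −0.08 within replicates 1 to 3. Il7r, the IL-7 receptor gene that naive and memory cells need to survive, was at 10.46, 10.93 and 10.46 against 8.83, 8.60 and 9.72. All transient arrays were lower (−1.57 ± 0.26 with the block, adjusted p = 0.0017, and 0.19 without it). Bcl2, which encodes a survival protein, was at 10.02, 9.34 and 9.74 against 8.49, 8.39 and 9.12, again without overlap (−1.03 ± 0.17, adjusted p = 0.0011, and 0.41 without the block). Of 27 naive and quiescence genes 4 fell and 1, Dapl1, rose with the block (14.8% and 3.7%, beside 0.868% lower and 2.02% higher of all genes, median 0.01, and −0.11 after cyclic loess scaling). The other members that fell were the gp130 gene Il6st and the Ikaros family gene Ikzf2. Klf2, a factor that keeps T cells quiescent and in circulation, was at 5.99, 6.24 and 6.23 against 7.13, 6.79 and 6.43, without overlap but also without a call (0.63 ± 0.21 with the block, adjusted p = 0.12). Without transient PBS replicate 2, 2 of the 5 calls remained, and 3 did without no-antigen PBS replicate 1 or 2 or transient PBS replicate 1.

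Other decreases were spread over many functions. Lad1, which encodes a basement membrane protein of epithelia, was at 8.19, 7.76 and 7.91 against 5.49, 5.94 and 6.37, and its groups were well apart (−2.02 ± 0.33, adjusted p = 0.032, and 0.00024 with the block). Cnn3, an actin-binding calponin gene, was the largest decrease with the block, at 8.55, 7.92 and 8.94 against 5.88, 5.72 and 7.03 without overlap (−2.26 ± 0.20, adjusted p = 2.1e-06, and 0.13 without the block). The sodium pump chain gene Atp1b1 was at 10, 8.62 and 10.56 against 7.46, 6.46 and 9.02. Its groups overlapped, and within each number it was lower after antigen (−2.08 ± 0.25 with the block, adjusted p = 8.4e-05). Rnf130 (−1.52 ± 0.27), Rab6b (−1.50 ± 0.26), Cd72 (−1.50 ± 0.21) and the kinase gene Map4k5 (−1.13 ± 0.15) fell in both fits, with adjusted p-values without the block of 0.047, 0.044, 0.011 and 0.0062. Other probe sets of Rnf130 differed by −0.02, 0.11 and −0.02 and those of Rab6b by 0.07, −0.01 and −0.20. Several of these lay below the median probe set, and both decreases rest on the probe set used. The tetraspanin gene Cd81, the transporter gene Slc22a2, the circadian repressor gene Nr1d2, Tsc22d1 and the cholesterol exporter gene Abca1 fell by 1.58 to 1.76 with the block. Of 25 costimulatory receptors and TNF family genes 3 fell with the block, Tnfrsf9, Tnfrsf25 and Cd72, and 0 rose (12%, beside 0.868% lower of all genes, median 0.01).

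**Figure D2:**
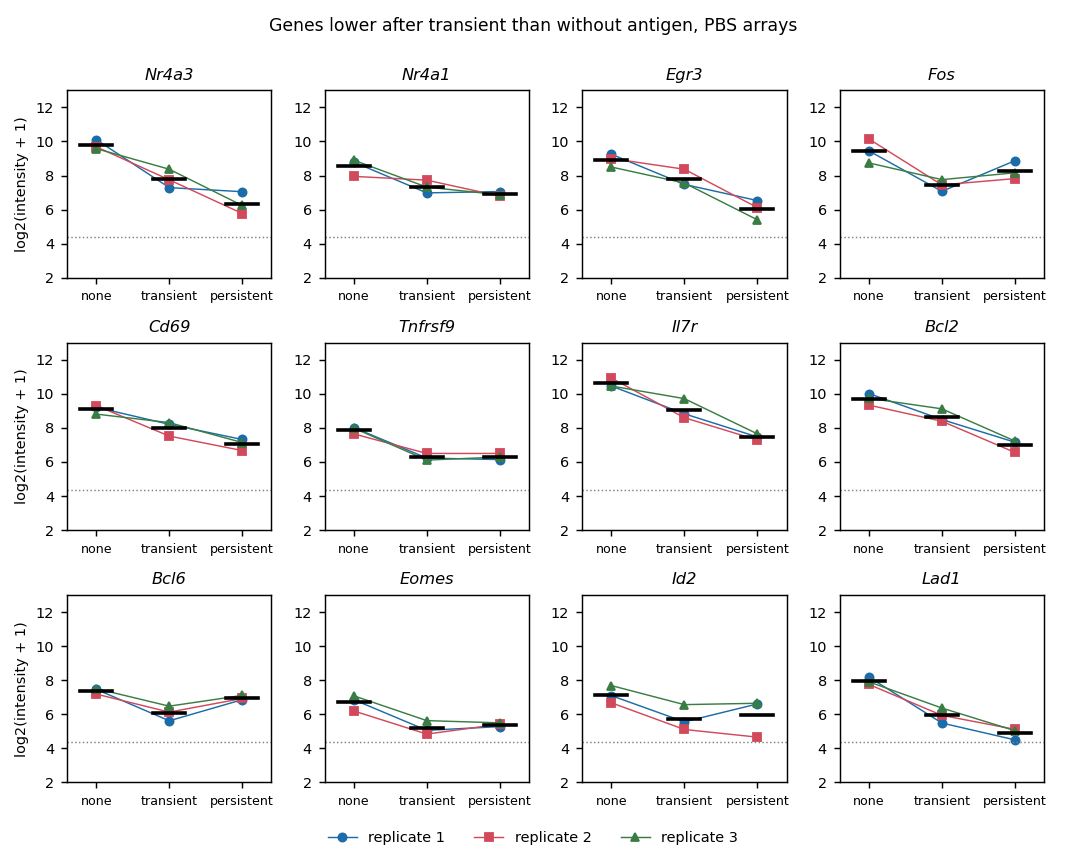
Log2(intensity + 1) of 12 genes that fell with the replicate block, in the PBS arrays without antigen, after transient antigen and under persistent antigen. Points are arrays, colours and lines join arrays with the same replicate number, black bars are group means of 3 arrays, and the dotted line is the median probe set (4.37). In 12 of 12 panels the 3 transient arrays lay below the no-antigen array of the same number.

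Genes of the Th1 and follicular helper lists moved both ways. Of 22 Th1 effector genes 4 rose and 3 fell with the block (18.2% and 13.6%, beside 2.02% higher and 0.868% lower of all genes, median 0.10). Tbx21, which encodes the Th1 factor T-bet, was at 3.65, 3.83 and 4.77 against 6.06, 4.67 and 6.37. It started at background and rose within each number, although the groups overlapped (1.62 ± 0.27 with the block, adjusted p = 0.0018, and 0.98 without it). Eomes, a related factor gene, was at 6.86, 6.20 and 7.09 against 5.06, 4.84 and 5.63 and fell (−1.54 ± 0.27 with the block, adjusted p = 0.0027). Id2, an inhibitor of E proteins, fell by 1.41 ± 0.23 with the block (adjusted p = 0.0015). The others were Cxcr3, Stat4 and Il12rb1, which rose, and Il27ra, which fell, and 4 of the 7 calls remained without transient PBS replicate 2 or 3. Ifng, the main Th1 cytokine gene, was at 5.37, 3.82 and 6.13 against 5.98, 5.23 and 7.86. It was higher within each number and did not pass (1.25 ± 0.39 with the block, adjusted p = 0.094). Of 18 follicular helper genes Maf and Slamf6 rose and Bcl6 fell with the block (11.1% and 5.56%, beside 2.02% higher and 0.868% lower of all genes, median 0.15). Maf, a factor gene of several helper lineages, was at 5.55, 4.95 and 5.91 against 7.69, 7.01 and 7.61 (1.97 ± 0.28, adjusted p = 0.00037). Bcl6, the repressor that directs the follicular helper fate, moved the other way, from 7.47, 7.19 and 7.51 to 5.62, 6.13 and 6.48 (−1.32 ± 0.20, adjusted p = 0.00073). Of 14 Th2 and Th17 genes none passed in either fit. Of 14 cytotoxic granule genes Nkg7, Serpinb9 and Serpinb6b rose with the block (21.4%, beside 2.02% higher of all genes). The protease gene Gzmb stayed near background at 4.51, 4.14 and 4.71 beside 4.19, 4.04 and 5.67 without antigen (−0.18 ± 0.29, adjusted p = 0.85). Of the 3 calls 1, Serpinb6b, remained without no-antigen PBS replicate 2 or any one of the 3 transient arrays. Of 23 anergy and signal-dampening genes Sla rose and Egr3 and Nr4a1 fell with the block (4.35% and 8.7%, beside 2.02% higher and 0.868% lower of all genes, median −0.01). Without transient PBS replicate 1 none of the 3 remained, and 1 did without no-antigen PBS replicate 2 or 3 or transient PBS replicate 3. Of 19 genes of receptor signalling 1, Themis, rose with the block (5.26%, beside 2.02% higher of all genes). Its call was kept in replicates 1 and 3 alone and lost without any one of 5 of the 6 arrays (not no-antigen PBS replicate 2).

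**Figure D3:**
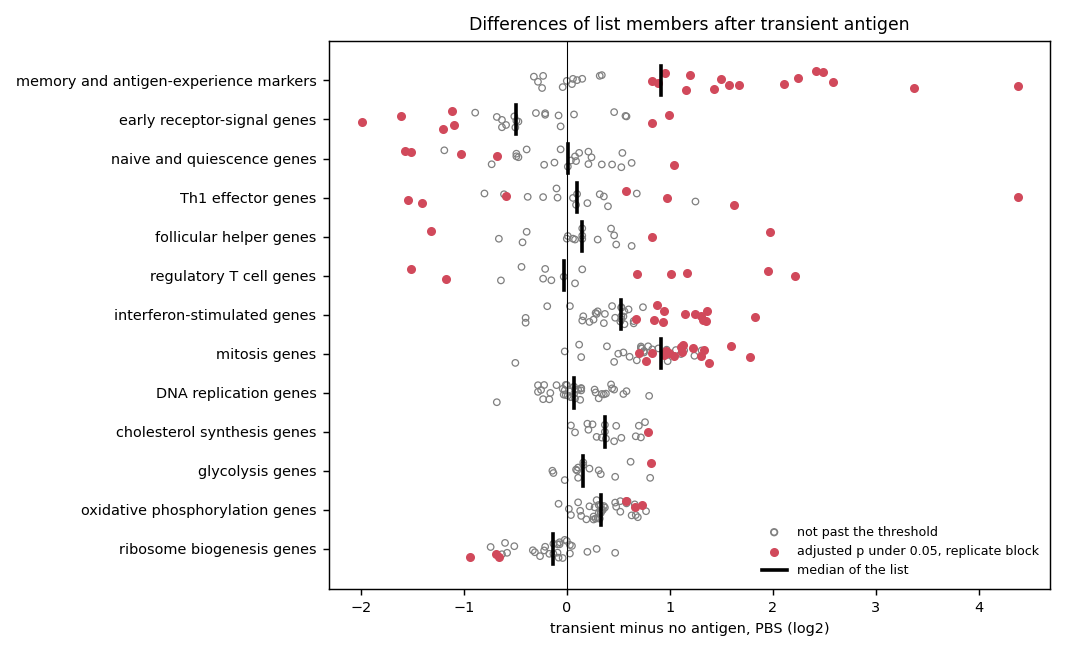
Difference between transient and no antigen with PBS (log2) for the measured members of 13 gene lists. Each circle is a gene, filled where its adjusted p was under 0.05 with the replicate block, and the black bar is the list's median of all measured members, beside 0.03 for all genes. Memory markers, mitosis genes and interferon-stimulated genes had medians of 0.92, 0.92 and 0.53, and DNA replication genes had none filled.

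Part of the mitosis genes rose. Of 42 mitosis genes 16 rose and 0 fell with the block (38.1%, beside 2.02% higher of all genes, median 0.92). Of 40 DNA replication genes 0 passed (median 0.07, and −0.01 after cyclic loess scaling), a count near the share of all genes. Without the block 0 members of either list passed. Over all genes limma gave 845 with an unadjusted p under 0.05 without the block and 2744 with it. The median level of the mitosis list was 6.24, 5.40 and 5.74 without antigen and 7.58, 6.67 and 6.15 after it. The median of its members' differences was 1.05, 1.29 and 0.46 within replicates 1 to 3. The replication list stood at 7.13, 6.18 and 6.74 against 7.35, 6.34 and 6.59. The rise was thus smaller in replicate 3, and 3 of the 16 calls remained without transient PBS replicate 2, 6 without no-antigen PBS replicate 2 or transient PBS replicate 1, and 9 in replicates 1 and 3 alone. Ccnb2, which encodes cyclin B2, was at 6.26, 4.66 and 5.34 against 7.66, 7.60 and 6.32 (1.78 ± 0.35 with the block, adjusted p = 0.0058, and 0.075 without transient PBS replicate 2). Birc5, the survivin gene of the chromosome passenger complex, was at 5.93, 4.35 and 5.44 against 7.69, 6.56 and 6.27 (1.60 ± 0.29, adjusted p = 0.0029). Ube2c, a ubiquitin carrier of the anaphase complex, was at 6.01, 4.56 and 5.54 against 7.07, 6.15 and 6.22 (1.11 ± 0.18, adjusted p = 0.0015). Both kept their calls in all 6 fits that left out an array. The other members that rose were Ccna2, Aurka, Plk1, Cenpa, Cenpe, Cenpf, Cdca3, Kif22, Spc25, Ttk, Prc1, Nek2 and Mki67. Cdk1 (0.97 ± 0.31, adjusted p = 0.11) and Top2a (1.11 ± 0.31, adjusted p = 0.063) were higher within each number and did not pass with the block. The count also depended on the probe set used. Cdca8, Racgap1, Kif11 and Hmmr did not pass, while 1 other probe set of each was higher by 1.44, 1.09, 1.23 and 1.30. Their unadjusted p-values in limma with the block were 2e-06, 4.6e-05, 0.00014 and 0.00038. Another probe set of Kif23 was lower (−0.52, unadjusted p = 0.0018). Other probe sets of Tpx2 differed by 1.04, 0.72 and −0.40 (unadjusted p = 0.00026, 0.0053 and 0.32), where the one used was lower after antigen. Other probe sets of Rrm2 were higher by 1.08 and 1.32 (unadjusted p = 0.00091 and 0.006). Of 24 G1 and E2F genes 1 rose with the block (4.17%, beside 2.02% higher of all genes). It was E2f2, an activator of the division cycle, which went from 6.17, 4.96 and 6.55 to 7.83, 6.95 and 7.86 (1.66 ± 0.20 with the block, adjusted p = 8.4e-05). In whole sorted samples more dividing cells and more of these transcripts in each cell cannot be told apart.

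The promoters of the mitosis genes differ from those of the replication genes in a short element, the cell cycle homology region, which with CCAAT boxes is known from genes of late division. Promoters were those of RefSeq on GRCm38.p6, 250 bases before to 50 after the start, and matched for 37 of 42 mitosis, 34 of 40 replication and 14452 of 18193 tested genes. A gene was counted if any of its promoters held the letters. The letters TTTGAA, on either strand, occurred for 73.0% of mitosis and 14.7% of replication genes. The share was 15.7% of the matched tested genes and 20.2% of all 27025 gene symbols with promoters, so replication genes were near the tested genes. They occurred in 80.0% of 15 matched mitosis genes that rose and in 68.2% of 22 that did not pass. TTTGAA together with CCAAT, also on either strand, occurred for 62.2% of mitosis and 11.8% of replication genes. The share was 7.36% of the matched tested genes and 8.97% of all gene symbols. The 200 bases before the start of Ccnb2 (chr9:70421555-70421754, minus strand) and Mki67 (chr7:135716380-135716579, minus strand) are shown as examples of the shared letters, 5′ to 3′ along the gene, with TTTGAA and CCAAT or their reverse complements in capitals.
Ccnb2: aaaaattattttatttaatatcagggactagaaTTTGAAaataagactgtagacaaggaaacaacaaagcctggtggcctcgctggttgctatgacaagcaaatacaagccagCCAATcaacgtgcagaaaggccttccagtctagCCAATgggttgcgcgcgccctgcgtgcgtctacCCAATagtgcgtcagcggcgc
Mki67: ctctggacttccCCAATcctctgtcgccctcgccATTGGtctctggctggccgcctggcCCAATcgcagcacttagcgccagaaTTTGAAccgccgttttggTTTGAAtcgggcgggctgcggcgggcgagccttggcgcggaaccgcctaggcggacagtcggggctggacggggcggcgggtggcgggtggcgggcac
Mki67, the proliferation marker gene, was at 9.13, 8.38 and 8.13 against 10.23, 10.45 and 8.85 (1.30 ± 0.30 with the block, adjusted p = 0.02). Its call was lost without no-antigen PBS replicate 2 (0.087) or transient PBS replicate 1 (0.085) or 2 (0.21). The letters describe these promoters, and no binding was measured.

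**Figure D4:**
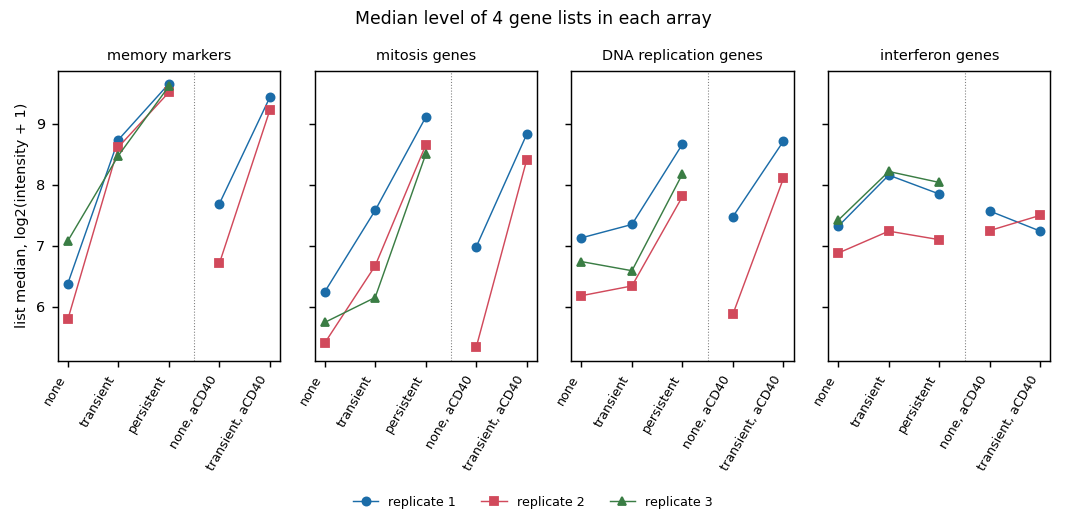
Median log2(intensity + 1) of 28 memory and antigen-experience markers, 42 mitosis genes, 40 DNA replication genes and 39 interferon-stimulated genes in each array, by antigen regime with PBS and, right of the dotted line, with the antibody against CD40 (aCD40). Points are arrays, and lines join arrays with the same replicate number. After transient antigen with PBS the memory markers, mitosis and interferon medians were higher in each number, and the replication median was lower in replicate 3.

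Part of the interferon-stimulated genes rose after transient antigen. Of 39 measured 12 rose and 0 fell with the block (30.8%, beside 2.02% higher of all genes, median 0.53, and 0.76, 0.39 and 0.46 within replicates 1 to 3), and without the block 0 passed. Rsad2, which encodes the antiviral enzyme viperin, was at 6.55, 5.92 and 6.77 against 9.10, 7.06 and 8.57. All transient arrays were higher, least so in replicate 2 (1.83 ± 0.34 with the block, adjusted p = 0.0038, and 0.55 without it). Isg20, an exonuclease gene, was at 6.47, 6.38 and 7.42 against 7.66, 7.82 and 8.55 (1.25 ± 0.23 with the block, adjusted p = 0.0035). Gbp3, a guanylate-binding protein gene, rose by 1.15 ± 0.18 (adjusted p = 8e-04) and the nucleic acid sensor gene Zbp1 by 0.88 ± 0.15 (adjusted p = 0.0021). Ifit1, Mx1, Cmpk2, Ifi27l2a, Oas1a, Dhx58, Lgals3bp and Irf9 were the others. All 12 remained past the threshold in replicates 1 and 3 alone, while 4 did so without transient PBS replicate 1, 6 without transient PBS replicate 3 and 7 without no-antigen PBS replicate 1 or 3. The core of the element that interferon factors bind, written here as GAAA, 2 bases of any kind and GAAA, was looked for on either strand of the same promoters. They occurred for 48.3% of 29 matched interferon-stimulated genes, with 50.0% in 8 that rose and 47.6% in 21 that did not pass. The share was 3.63% of the matched tested genes and 3.99% of all gene symbols. The 200 bases before the start of Rsad2 (chr12:26456453-26456652, minus strand) and Ifit1 (chr19:34640689-34640888, plus strand) are shown with this element, here in its reverse complement, in capitals.
Rsad2: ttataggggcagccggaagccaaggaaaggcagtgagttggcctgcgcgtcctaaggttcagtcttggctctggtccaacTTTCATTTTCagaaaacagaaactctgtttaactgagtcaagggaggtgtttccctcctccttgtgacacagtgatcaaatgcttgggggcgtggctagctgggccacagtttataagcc
Ifit1: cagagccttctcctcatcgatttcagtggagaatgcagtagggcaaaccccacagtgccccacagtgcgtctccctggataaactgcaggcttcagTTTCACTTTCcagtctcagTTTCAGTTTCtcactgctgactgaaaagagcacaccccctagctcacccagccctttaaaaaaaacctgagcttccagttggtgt
Ifit1 was at 5.60, 5.68 and 6.17 against 7.28, 6.82 and 7.43 without overlap (1.36 ± 0.32 with the block, adjusted p = 0.022). Its call was lost without no-antigen PBS replicate 2 (0.087) or transient PBS replicate 1 (0.15) or 3 (0.065).

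Single genes of growth and energy passed. Of 38 oxidative phosphorylation genes 3 rose and 0 fell with the block (7.89%, beside 2.02% higher of all genes, median 0.33). Of the 38, 37 were above 0, beside 10227 of 18193 genes tested. Members of a list can vary together, so such counts are not a test. None of the 3 calls remained without no-antigen PBS replicate 2 or 3 or transient PBS replicate 2, and 1 did without transient PBS replicate 1 or 3. Of 18 cholesterol synthesis genes 1, Cyp51, rose (5.56%, beside 2.02% higher of all genes, median 0.38). Its call was lost without any one of 4 arrays (no-antigen PBS 1 and 3, transient PBS 1 and 2). All 18 were above 0, beside 10227 of 18193 genes tested. Of 16 glycolysis genes 1 rose (6.25%, beside 2.02% higher of all genes). It was the phosphofructokinase gene Pfkp, at 8.19, 8.21 and 8.03 against 8.96, 9.04 and 8.88 (0.82 ± 0.15 with the block, adjusted p = 0.0049). Its arrays were tight in both groups. Of 30 ribosome biogenesis genes 3 fell, Gnl3, Nop56 and Tsr1, and 0 rose (10%, beside 0.868% lower of all genes, median −0.13). None of these 3 remained past the threshold without any one of 5 of the 6 arrays, and 2 did without no-antigen PBS replicate 3. Myc, which drives growth, was at 5.43, 6.38 and 4.82 against 5.12, 4.99 and 4.48 (−0.68 ± 0.20 with the block, adjusted p = 0.073). Of 20 cell death and survival genes Casp1 and Casp4 rose and Bcl2 fell with the block (10% and 5%, beside 2.02% higher and 0.868% lower of all genes). Casp1, the inflammatory caspase gene, was at 7.39, 7.05 and 6.44 against 8.37, 8.08 and 8.50 (1.36 ± 0.22, adjusted p = 0.0011). Casp4 was at 7.51, 6.90 and 6.76 against 8.41, 8.62 and 8.28 (1.37 ± 0.22, adjusted p = 0.0013).

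The sorted cells carried T cell markers, and the summed intensities of markers of other cells were lower. All 12 measured T cell markers lay above the median probe set, and their summed intensity was 13830 to 16380 without antigen and 16000 to 16820 after it. Thy1, the gene of CD90, rose with the block, and because CD90.1 and CD4 chose the cells, neither gene is read as a result. Of 16 B cell markers 7 lay below the median probe set in both groups, among them Cd79a, Cd79b and Pax5, and their sum was 625 to 692 against 494 to 648. The B cell marker that passed was Cd72, which fell, and the part of B cells in that decrease was not tested. Of 15 dendritic cell and macrophage markers none passed with the block, 5 of them (Cd14, Cd68, Itgam, Tyrobp and Xcr1) lay below the median probe set, and the sum was 365 to 469 against 362 to 494. None of the measured markers of NK and CD8 T cells, granulocytes, erythrocytes or stroma passed with the block. By the higher group mean, 9 of 16 B cell and 10 of 15 dendritic cell and macrophage markers lay above the median probe set. So did 5 of 7 plasma cell, 4 of 9 NK and CD8 T cell, 3 of 8 granulocyte, 1 of 4 erythrocyte and 5 of 9 stroma markers. How much of the RNA came from other cells was not measured. Of 7 plasma cell markers Irf4, which activated T cells also express, rose with the block, a call kept only in the fit without transient PBS replicate 1 among those that left out an array, and Jchain lay below the median probe set.

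Levels under persistent antigen were set beside those after transient antigen, a comparison that uses the same 3 transient arrays. With the block 2079 genes, or 11.4%, passed there (5.99% higher and 5.44% lower under persistent antigen). Of the 525 genes 115 moved further the same way, 63 moved back and 347 did not pass. Cxcr3 under persistent antigen was at 10.80, 10.57 and 10.92, a difference of 0.34 ± 0.32 (adjusted p = 0.55 with the block). Itgb1 (0.07 ± 0.29), Ctla4 (−0.11 ± 0.21), Gimap7 (−0.10 ± 0.17) and P2rx7 (−0.08 ± 0.18) also did not pass, with standard errors that leave room for small differences. Others were intermediate. Anxa2 reached 10.51, 10.06 and 9.93 under persistent antigen (2.21 ± 0.27 above transient, adjusted p = 2e-05), and Plac8 and Maf were higher there by 2.50 ± 0.34 and 2.33 ± 0.28. Of the mitosis list 40 of 42 and of the replication list 38 of 40 were higher under persistent antigen. Nr4a3 (−1.45 ± 0.28), Il7r (−1.58 ± 0.26) and Bcl2 (−1.68 ± 0.17) were lower still there. In still others the level was highest or lowest after transient antigen. Cd44 was lower under persistent antigen, at 10.03, 9.32 and 10 (−0.81 ± 0.23, adjusted p = 0.028), and so were Epsti1 (−1.08 ± 0.23) and Dapl1 (−1.93 ± 0.21). Bcl6 was higher there, at 6.86, 6.93 and 7.11 (0.89 ± 0.20, adjusted p = 0.0057), as was Cnn3 (1.07 ± 0.20, adjusted p = 0.0011).

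The same antigen comparison was available in arrays that the PBS comparison did not use, 2 with and 2 without transient antigen in mice given the antibody against CD40. These arrays share replicate numbers 1 and 2, and with them the block and the estimate of spread, with the PBS arrays. They were titled no dox and short dox, so doxycycline lies along antigen here as well. Antigen and recipient genotype are not told apart by this comparison either. In replicate 2 of both comparisons the arrays without antigen came from 1 run of array numbers and those with antigen from another, so that this difference lies along antigen in both. There 104 genes passed without the block (0.572%) and 2548 with it (14%, with 10.5% higher and 3.48% lower). Of the 23 genes 22 differed in the same direction and 18 passed that way with the block (78.3%, beside 10.6% of all genes with the sign of their PBS difference). Of the 525, 466 differed in the same direction (88.8%, beside 59.5% of all genes), 273 passed that way and 9 passed the opposite way. In replicate 1 of the antibody arrays, where all arrays came from 1 run, 427 of the 525 had the same sign (81.3%, beside 55.8% of all genes). So did 272 of the 334 (81.4%) that also passed with PBS in replicates 1 and 3 alone. Cxcr3 went from 8.10 and 6.17 to 10.73 and 10.65 (3.55 ± 0.39 with the block, adjusted p = 1.5e-05). Itgb1 went from 7.48 and 5.15 to 9.78 and 9.77 (3.46 ± 0.35), and Anxa2 from 7.49 and 5.97 to 9.50 and 9.15 (2.59 ± 0.33). The decrease of Lad1 was also present, from 8.54 and 7.21 to 5.52 and 5.76 (−2.23 ± 0.33). Memory markers had a median of 1.07 there, with 18 of 28 higher and 1 lower with the block. The cycle lists differed: 39 of 42 mitosis and 39 of 40 replication genes rose there, with medians of 2.23 and 1.80. Interferon-stimulated genes had a median of 0.06, with 4 of 39 higher. The test of the difference between the effects called 0 genes without the block (895 at an unadjusted p under 0.05 in limma) and 672 with it (3.69%). Of all genes 3.09% had a more positive and 0.605% a more negative effect with the antibody. These are signs and not sizes, since a more negative effect can be a larger decrease, as for Abca1. With the block the test called 32 of 40 replication, 16 of 42 mitosis and 15 of 30 ribosome biogenesis genes as more positive with the antibody. Of the interferon list it called 1 gene, Rsad2, as more negative. Those counts rested on few arrays: the 672 became 99 without transient FGK replicate 1 and 107 without no-antigen FGK replicate 2.

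**Figure D5:**
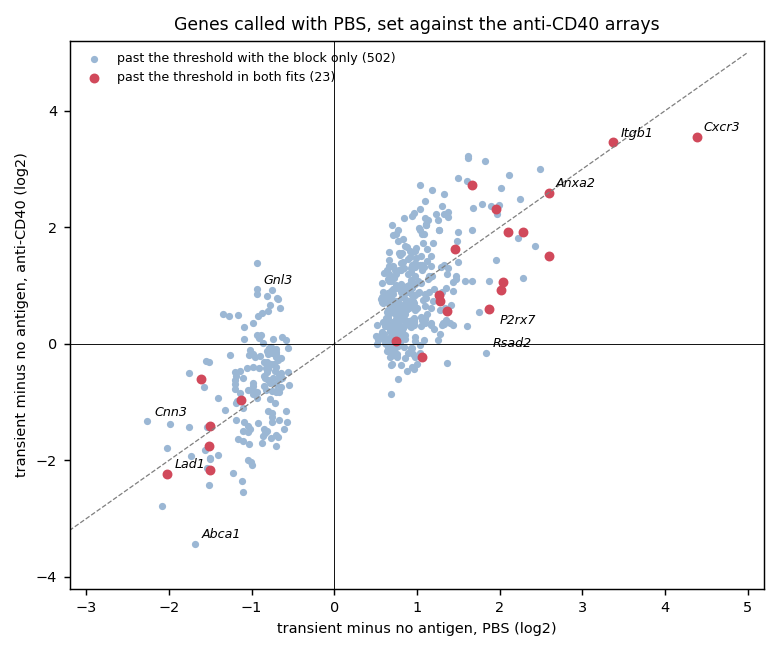
Difference between transient and no antigen (log2, fit with the replicate block) with PBS on the horizontal axis and with the antibody against CD40 on the vertical axis, for the 525 genes past the threshold with PBS. Red points are the 23 genes past it in both fits, blue points the other 502, and the dashed line marks equal differences. Of the 525 points 466 have the same sign on both axes, Cxcr3 and Itgb1 are farthest to the upper right, and Rsad2 lies near 0 on the vertical axis.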

How the data were processed

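The values are the authors' deposited intensities of an Affymetrix mouse array, on a linear scale after RMA per the submitters' processing notes (version not given in the sources used here). RNA was amplified in 2 rounds per the labels' protocols. RMA makes the distributions of arrays alike, so a shift of all genes cannot be seen, and the number of arrays limits precision. log2(intensity + 1) was computed from the deposited values. Of 45101 probe sets 34945 had 1 gene symbol, 932 had several, 9211 had no entry among the supplied names, and 64 counted among these were array controls; for each of 18193 genes the probe set of highest mean over the 16 arrays, controls left out, was used. Of 121 other probe sets of the 96 named genes past the threshold 19 had the opposite sign, 1 of them (for Egr3, 0.40) at an unadjusted p under 0.05. Genes that did not pass are not in this check, so calls missed through the choice of probe set are not counted.

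A model of 6 group means over all 16 arrays was fitted with limma 3.58.1 (R 4.3.3), with an intensity trend and Benjamini-Hochberg adjustment, without and with the replicate number as a block. Deviations from group means correlated at 0.481 to 0.806 in 36 pairs of arrays with the same number (median −0.525 in 70 pairs with different numbers), and at 0.635, 0.753 and 0.568 between the PBS groups compared, and on this basis, not from a label, the numbers were used as pairs. Tested on simulated data of 18193 genes with 200 changed, the fit of this comparison recovered 44.8, 83.6 and 98.5% of changes of 1, 2 and 3 in log2, and 85.1, 100 and 100% with the block, with 0 and 7 false calls.

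The 34 lists hold 668 genes, 615 of them measured. Members and lists were chosen with earlier results of these data known, so the lists support nothing on their own. Named genes were every gene past the threshold without the block, the 12 largest increases and decreases with the block (same sign in each number, above the median probe set, without clone names, receptor segments and sex-linked genes), up to 6 members of each list that passed, core T cell genes, and in part other list members. Alternatives were a block for runs of array numbers, the 6 arrays alone, no trend, dim genes left out, mean probe sets, cyclic loess, array weights, log2(intensity + 16), replicates 1 and 3 only and leaving out each array. The leave-outs of the other comparisons, the signs in replicate 1 of the antibody arrays, and some genes added below, were chosen after seeing the data.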

Additional observations from a re-analysis of the deposited data

Results flagged for a closer look

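These 11 genes are named because the effect of transient antigen differed between mice given the antibody against CD40 and mice given PBS, by the difference of effects in limma with the replicate block (adjusted p under 0.05). Without the block none of them passed. The effect was larger with the antibody, or opposite in sign, for Gzmb (2.88), Cdk1 (1.95), Gnl3 (1.89), Nop56 (1.48) and Tsr1 (1.27). Gnl3, Nop56 and Tsr1, genes of ribosome biogenesis, fell with PBS and rose with the antibody. The effect was smaller or more negative with the antibody for Rsad2 (−1.98), Abca1 (−1.74), P2rx7 (−1.28), Armc3 (−1.28), Dapl1 (−1.20) and Ephx4 (−0.70). Abca1, the cholesterol exporter gene, fell from 7.33, 8.07 and 6.42 to 5.34, 5.48 and 5.94 with PBS and from 7.02 and 7.50 to 3.32 and 4.35 with the antibody.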

How the results depend on the processing

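For transient against no antigen with PBS the 23 genes became 525 with the replicate block, 401 with the run of array numbers as a block (replicate 2 holds a different run in each group), 458 with array weights, 44 with cyclic loess and 0 in a fit of the 6 arrays alone (785 at an unadjusted p under 0.05 in limma, smallest adjusted p 0.054), where the blocked fit called 382. Leaving out 1 array gave 7 to 16. The blocked count became 1479 with array weights and 211 to 470 without 1 array (312 without transient PBS replicate 1). Of the 525, 519 were kept with array weights, 466 with cyclic loess, 340 with mean probe sets and 334 in replicates 1 and 3 alone. For transient against no antigen with the antibody the count was 104, 2548 with the block, 0 to 360 without 1 array and, with the block, 1067 without transient FGK replicate 1, 1109 without no-antigen FGK replicate 2 and up to 2518. For the difference of effects it was 0, 672 with the block and, with the block, 99 to 879 without 1 array (107 without no-antigen FGK replicate 2, 399 and 414 without transient PBS replicates 1 and 3). For persistent against transient antigen it was 169, 2079 with the block, 37 to 161 without 1 array and 1264 to 1639 with the block (1334 without transient PBS replicate 2). Of single genes Gzmb, which did not pass, ranged from −0.48 to 0.34 (without no-antigen PBS replicate 2 and 3) and was at 0.41 with block and array weights, and Ndufc1 ranged from −0.36 (without no-antigen PBS replicate 2) to 1.84; the cause was not tested. Rnf130 was at −0.36 with the mean of its probe sets. All other alternatives kept the sign of each named gene. Of 170 list medians under alternatives 45 moved by more than the SD of the 3 medians within replicate numbers, 40 of them within 1 number. The other 5 were −0.11 (naive genes), 0.06 (follicular helper genes) and −0.02 (chemokine receptors) with cyclic loess, and −0.38 (early receptor-signal genes) and 0.11 (follicular helper genes) with log2(intensity + 16). Signal near background limits the sizes for dim genes.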

Other observations

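Genes around the inflammatory caspases were looked at after Casp1 and Casp4 had been seen among the increases. Pycard, which encodes the adaptor that joins sensors to caspase-1, was at 8.33, 7.23 and 8.53 without antigen and at 9.64, 8.96 and 9.54 after transient antigen (1.35 ± 0.21 with the block in limma, adjusted p = 0.00077). The sensor genes Aim2 and Nlrp3, the cytokine genes Il1b and Il18 and the pore-forming gene Gsdmd did not pass, with differences of −0.20 to 0.18, and Nlrp3 lay below the median probe set in all 6 arrays.

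Further genes chosen after their values were seen were these. Plscr1, an interferon-induced scramblase gene, was at 5.31, 3.74 and 4.38 against 7.13, 6.00 and 6.37 (2.02 ± 0.21 with the block, adjusted p = 1.5e-05). Dusp1, a phosphatase gene induced with Fos, was at 6.22, 6.00 and 6.10 against 4.73, 3.81 and 5.24 (−1.51 ± 0.24, adjusted p = 0.00096). Fosb lay near background in both groups (−0.22 ± 0.15, adjusted p = 0.55). Of the GTPase genes beside Gimap7, Gimap4 rose by 0.57 ± 0.13 (adjusted p = 0.02) and Gimap6 by 0.63 ± 0.16 (adjusted p = 0.041) with the block. Gimap4 was among the brightest genes, at 12.03, 12.17 and 12.26 against 12.74, 12.77 and 12.65.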
